A study of Mus musculus with 6 samples.

Results

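The immediate early genes described here are 9 genes of the deposited count table, taken by their Ensembl identifiers as matched to symbols in GENCODE vM21: Fos, Fosb, Jun, Junb, Jund, Egr1, Klf4, Ier2 and Dusp1. They are 9 of the 49584 gene identifiers in the table. Poly(A) RNA was profiled by Smart-seq2, a full-length cDNA method with PCR amplification, in mouse spermatocytes of the leptotene and zygotene stages, sorted on postnatal day 12. There were 3 libraries of Srp68 SKO cells, named CKO in the table, and 3 of wild type cells. SRP68 belongs to the signal recognition particle, which docks ribosomes that make secreted or membrane proteins on the endoplasmic reticulum. Per the labels' protocols, the tubules of both groups were dissociated with collagenase and then trypsin. The promoter that drives the deletion, the deleted exons, the strain and the number of animals behind each library are not stated in the labels, so p-values reflect the spread of these libraries alone, which may be technical.

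Immediate early genes are transcribed within minutes of a stimulus without new protein synthesis. Mostly this is done by factors already bound to their promoters, such as SRF with its ELK partners and CREB. These factors act once signalling through kinase cascades, such as those of the MAP kinases, leads to phosphorylation of ELK proteins and CREB. FOS family proteins pair with JUN family proteins through leucine zippers to form AP-1, which binds DNA and turns on later genes. EGR1 and KLF4 are zinc finger transcription factors, IER2 is a nuclear protein linked to transcription, and DUSP1 is not a transcription factor but a nuclear phosphatase that switches MAP kinases off. JUND differs from its relatives in that most cells express it steadily. Immediate early genes are also known to respond to enzymatic tissue dissociation. The labels describe 1 protocol for both groups, and the part of dissociation in the results below was not tested.

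The promoters of the 3 members that passed the test for a higher level in SKO libraries, and that of Dusp1, which did not pass, are printed below so that the sequences can be read beside the values. Each is the 250 bases before the RefSeq start site on GRCm38.p6, on the gene's own strand, at chr12:85473640-85473889 (Fos, plus strand), chr7:19310046-19310295 (Fosb, minus strand), chr4:55532476-55532725 (Klf4, minus strand) and chr17:26508473-26508722 (Dusp1, minus strand). Capitals mark the CRE core site TGACG, which CREB binds, the EGR site GCGNGGGCG and the TATA box TATAAA, each on either strand.
Fos: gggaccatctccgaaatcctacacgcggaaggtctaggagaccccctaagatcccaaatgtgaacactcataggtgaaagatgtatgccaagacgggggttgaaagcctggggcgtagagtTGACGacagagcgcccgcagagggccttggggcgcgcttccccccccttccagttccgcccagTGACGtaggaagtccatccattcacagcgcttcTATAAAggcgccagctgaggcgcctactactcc
Fosb: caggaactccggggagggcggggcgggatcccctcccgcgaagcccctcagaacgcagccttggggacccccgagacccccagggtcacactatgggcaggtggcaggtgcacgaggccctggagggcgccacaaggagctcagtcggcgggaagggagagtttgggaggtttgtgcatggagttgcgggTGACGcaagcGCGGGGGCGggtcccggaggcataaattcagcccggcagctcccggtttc
Klf4: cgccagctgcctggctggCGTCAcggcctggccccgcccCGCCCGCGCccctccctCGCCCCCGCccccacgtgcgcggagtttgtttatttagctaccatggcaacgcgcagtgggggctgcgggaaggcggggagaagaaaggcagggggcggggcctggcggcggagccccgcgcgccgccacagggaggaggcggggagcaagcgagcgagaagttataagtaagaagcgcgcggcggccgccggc
Dusp1: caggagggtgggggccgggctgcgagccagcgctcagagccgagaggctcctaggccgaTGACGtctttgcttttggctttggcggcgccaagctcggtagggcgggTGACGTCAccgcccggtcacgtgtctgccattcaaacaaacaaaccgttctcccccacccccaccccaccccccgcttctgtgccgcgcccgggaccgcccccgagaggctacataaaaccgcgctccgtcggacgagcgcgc

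Such a window was used for 7 members. Member windows on chromosome 18, where Egr1 lies, were left out, and Ier2 had none among those used. The motif counts below therefore cover neither Egr1 nor Ier2. The shares over all 32851 windows were not limited in this way. For Jund and Dusp1 the RefSeq start differs from the GENCODE gene start. The Jund window, chr8:70697489-70697738, does not adjoin the GENCODE start at 70698949, so its lack of motifs does not describe the bases next to that start. The Dusp1 window lies inside the GENCODE gene, which runs to 26562128. The CRE core site was found in 5 of the 7 windows, those of Fos, Fosb, Junb, Klf4 and Dusp1, and in 17.8% of all 32851 windows of the same length. Fos held it at 129 to 125 and at 66 to 62 bases before the start, and Fosb at 60 to 56 bases before the start. In Dusp1, a pair of core sites on opposite strands overlapped in the full palindrome TGACGTCA. The EGR site was found in Fosb, where it lay 50 to 42 bases before the start, and at 2 places in Klf4, against 4.7% of all windows. Of the 7 windows, 1, that of Fos, held the TATA box (12.4% of all windows). None of the 7 held the AP-1 site TGANTCA (6.75% of all windows) or the CArG box that SRF binds (1.47%), which says only that these letters are not in these windows.

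The libraries held 11853738 to 12728853 counts in the SKO group and 14254224 to 15381473 counts in the wild type group. At this depth 3 counts, taken as a floor that covers counting error only, corresponded to 0.247 to 0.289 CPM (counts scaled to library size, with TMM factors) in SKO libraries and 0.174 to 0.196 CPM in wild type libraries. Srp68 itself averaged 8.51 ± 3.11 CPM in SKO libraries and 24.5 ± 4.12 CPM in wild type libraries (SD, n = 3 each), lower in every SKO library. All 12 leptotene and zygotene markers examined, such as Sycp3 and Dmc1, had counts in every library. Their summed level was 25300 to 33300 CPM in SKO libraries and 15300 to 19000 CPM in wild type libraries; 8 of the 12 were called higher and 1, Spo11, lower (log2 fold change −0.36). Markers of the pachytene stage differed as well. Of 8 pachytene markers, 6 were tested, 0 were called higher and 5 lower, among them Ldhc and Clgn (median log2 fold change −1.56), and their sum was 528 to 605 CPM in SKO libraries and 672 to 777 CPM in wild type libraries. The 10 spermatogonia markers summed to 247 to 328 CPM in SKO libraries and 356 to 415 CPM in wild type libraries. Of 8 tested, 1, Uchl1, was called lower, and the median log2 fold change was −0.07. Uchl1 was the most abundant of the 10, at 118 ± 26.7 CPM in SKO and 215 ± 8.79 CPM in wild type (SD, n = 3 each), so the sums lean on it. The part of these stage markers in the results below was not tested. In bulk libraries, fewer cells of a type and less RNA per cell cannot be told apart.

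Markers of somatic cells were few, but some moved with the groups. SKO replicate 3 stood apart by its macrophage markers. The 8 macrophage markers summed to 2.63, 2.42 and 46.1 CPM in SKO replicates 1 to 3, against 2.77, 1.8 and 2.49 CPM in wild type replicates 1 to 3, with C1qb, Csf1r, C1qa, Mrc1 and Adgre1 at 0 in every wild type library. The 6 myoid markers summed to 28.6 to 51.5 CPM in SKO libraries and 17 to 25.1 CPM in wild type libraries. Most of these sums was Mylk, at 32.9 ± 7.78 CPM in SKO and 18.4 ± 3.78 CPM in wild type (SD, n = 3 each). Mylk and Acta2 (smooth muscle actin) were called higher in SKO. Myh11, Tagln and Cnn1 had at most 16 counts in any library and were not tested, and Des was at 0 in all 6 libraries. The 10 Sertoli markers summed to 21.8 to 106 CPM in SKO libraries and 44 to 53 CPM in wild type libraries, the 6 Leydig markers to 4.94 to 9.87 CPM and 0.58 to 6.6 CPM, the 7 endothelial markers to 2.88 to 4.75 CPM and 1.03 to 3.42 CPM, and the 7 erythroid markers to 37.4 to 150 CPM and 2.77 to 137 CPM in the same order of groups. The steroidogenic genes Cyp11a1 and Cyp17a1, the endothelial gene Emcn and the erythroid gene Alas2 were at 0 in all 6 libraries.

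Of the 9 members, 3 (Fos, Fosb and Klf4) were called higher in SKO spermatocytes, 0 were called lower and 6 did not pass. A gene was called when its Benjamini-Hochberg adjusted p over all 13474 tested genes was under 0.05 in edgeR's quasi-likelihood test. Of all tested genes, 14.1% were called higher and 14.4% lower. The count of 0 lower members was also 0 at an unadjusted p under 0.05, in DESeq2 and in limma-voom. Fos and Klf4 rose clearly beyond the spread between libraries, whereas the call of Fosb depended on the processing. All 9 members passed the filter on low counts, Junb with only 2 SKO libraries and 1 wild type library at or above its cut-off of 0.741 CPM. The median log2 fold change (SKO over wild type) was 1.39 over the 9 members and −0.03 over all tested genes. The members' median is the value of Junb, the scarcest of them. Because the members were chosen with earlier results of these data known, their counts and median beside those of all genes are a description only. Leaving out wild type replicate 3 gave a members' median of 0.84, leaving out wild type replicate 1 gave 0.93, and leaving out SKO replicate 3 gave 1.05. Most members were scarce: 6 averaged under 5 CPM over the 6 libraries, and 1 of these was called, while 2 of the 3 members at or above 5 CPM were called. Among all tested genes, 7.51% of those under 5 CPM and 40.1% of those at or above it were called in either direction.

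**Figure D1:**
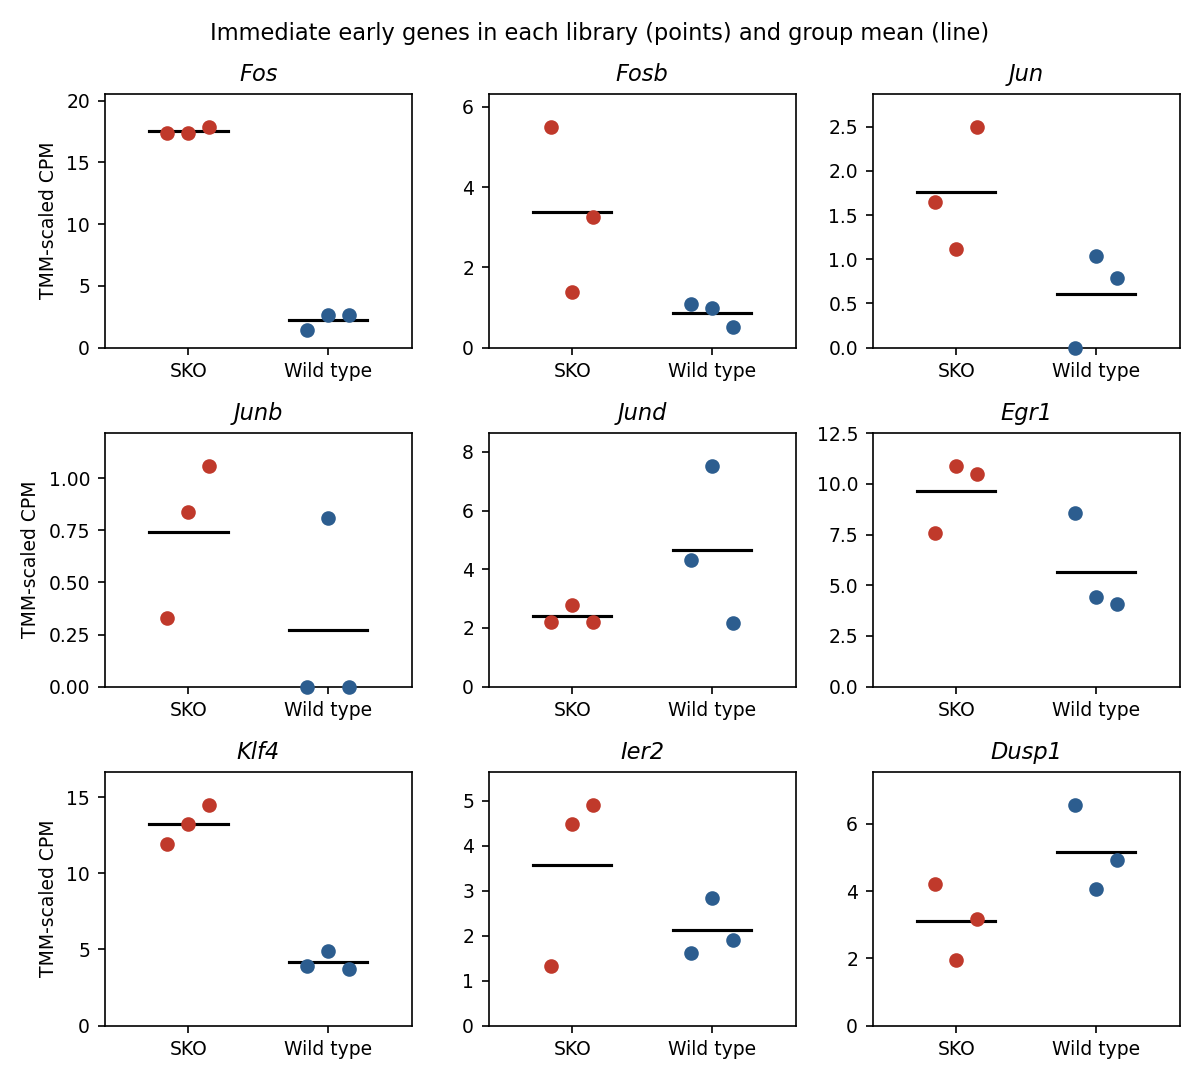
TMM-scaled CPM (vertical axes, linear, a separate scale for each gene) of the 9 immediate early genes in each of the 3 SKO libraries (red, left) and 3 wild type libraries (blue, right); the line is the mean of 3 libraries. The groups do not overlap for Fos, Fosb, Jun and Klf4, and overlap for the other 5 genes.

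Fos, which encodes the best known partner of JUN in AP-1, showed the largest difference of the 9. The gene (ENSMUSG00000021250; GRCm38 chromosome 12, 85473890 to 85477273, plus strand) had 212, 187 and 186 counts in SKO replicates 1 to 3, against 22, 45 and 40 counts in wild type replicates 1 to 3. On the CPM scale these were 17.4, 17.4 and 17.9 in SKO libraries and 1.42, 2.61 and 2.62 in wild type libraries. The 3 SKO libraries lay close together, and the lowest of them stood far above the highest wild type library. The means were 17.6 ± 0.274 CPM in SKO and 2.21 ± 0.69 CPM in wild type (SD, n = 3 each), a ratio of 7.94. The log2 fold change was 2.98 (SE 0.33, 95% interval 2.28 to 3.68; edgeR adjusted p = 2.04e-05). Counted from the highest log2 fold change, Fos ranked 51 of the 13474 tested genes. Without SKO replicate 3, the library with macrophage markers, the log2 fold change was 2.97 (edgeR adjusted p = 0.000204). The part of macrophage markers in the level of Fos was not tested. The summed myoid markers, mostly Mylk, were higher in every SKO library than in any wild type library. Their part in the level of Fos was not tested either.

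Klf4, which encodes a zinc finger factor known as a regulator of epithelial differentiation and pluripotency, rose as well. The gene (ENSMUSG00000003032; chromosome 4, 55527143 to 55532466, minus strand) was at 11.9, 13.2 and 14.5 CPM in SKO replicates 1 to 3, against 3.93, 4.87 and 3.73 CPM in wild type replicates 1 to 3. Every SKO library was above every wild type library, and the spread within each group was small beside the gap. Its means were 13.2 ± 1.34 CPM in SKO and 4.18 ± 0.605 CPM in wild type (SD, n = 3 each), with a log2 fold change of 1.66 (SE 0.3, 95% interval 1.01 to 2.3; edgeR adjusted p = 0.000928). Without SKO replicate 3 it was 1.58 (edgeR adjusted p = 0.00646). In mouse testis KLF4 is known from Sertoli cells and post-meiotic germ cells. The sums of Sertoli markers given above, mostly Clu, overlapped between the groups. The highest sum, 106 CPM, was that of SKO replicate 3, which also had the most Klf4. Single markers differed in direction. Wt1 was at 2.3, 3.07 and 2.98 CPM in SKO replicates 1 to 3, against 1.48, 1.56 and 0.262 CPM in wild type replicates 1 to 3. Tsx was lower in every SKO library than in any wild type library. Neither was called, and the part of Sertoli markers in the level of Klf4 was not tested.

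Fosb, a close relative of Fos whose protein also pairs with JUN proteins, was higher in SKO but close to the threshold. The gene (ENSMUSG00000003545; chromosome 7, 19302696 to 19310051, minus strand) had 67, 15 and 34 counts in SKO replicates 1 to 3, against 17, 17 and 8 counts in wild type replicates 1 to 3. In CPM it was at 5.51, 1.4 and 3.27 in SKO libraries and 1.1, 0.985 and 0.524 in wild type libraries. The groups did not overlap after scaling, but SKO replicate 2 lay just above the wild type libraries. The log2 fold change was 1.96 (SE 0.69, 95% interval 0.47 to 3.44; edgeR adjusted p = 0.0477). It lost its call without SKO replicate 1 (1.41; adjusted p = 0.301) or 3 (1.98; 0.11), without wild type replicate 1 (2.15; 0.0731), 2 (2.06; 0.0871) or 3 (1.7; 0.107), with library totals in place of TMM (1.71; 0.084), without a low-count filter (1.94; 0.0628) and in limma-voom (1.82; 0.0939).

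The JUN family, the partners that FOS and FOSB need to bind DNA, held no called member. Jun (ENSMUSG00000052684; chromosome 4, 95049034 to 95052222, minus strand, 1 exon) had 20, 12 and 26 counts in SKO replicates 1 to 3, against 0, 18 and 12 counts in wild type replicates 1 to 3. In CPM the SKO libraries, at 1.65, 1.12 and 2.5, were all above the wild type libraries, at 0, 1.04 and 0.786, but SKO replicate 2 and wild type replicate 2 were nearly level. Its log2 fold change was 1.5 with a wide 95% interval of −0.72 to 3.73 (edgeR adjusted p = 0.313). Of its annotated exon length, 7.28% overlaps the opposite-strand gene Junos, which itself had 1 to 38 counts a library.

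Junb was the scarcest of the 9. The gene (ENSMUSG00000052837; chromosome 8, 84974484 to 84978718, minus strand) had 4, 9 and 11 counts in SKO replicates 1 to 3, against 0, 14 and 0 counts in wild type replicates 1 to 3. Only wild type replicate 2 of its group had counts, and it was within the SKO range on the CPM scale, at 0.811 CPM against 0.329 to 1.06 CPM in SKO libraries. The log2 fold change of 1.39 had a 95% interval from −1.46 to 4.24 (edgeR adjusted p = 0.478), so no difference was detectable at this depth.

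Jund, the steadily expressed member of the family, lay lower in SKO on average. The gene (ENSMUSG00000071076; chromosome 8, 70698949 to 70700616, plus strand, 1 exon) was at 2.22, 2.79 and 2.21 CPM in SKO replicates 1 to 3, against 4.32, 7.53 and 2.16 CPM in wild type replicates 1 to 3. Wild type replicate 3 was level with the SKO libraries, and the wild type spread was wide (means 2.41 ± 0.332 CPM in SKO and 4.67 ± 2.7 CPM in wild type, SD, n = 3 each). The log2 fold change of −0.95 did not pass (95% interval −2.06 to 0.15; edgeR adjusted p = 0.19), and it stood at −0.08 after a correction of each library for GC content and gene length. Of its annotated exon length, 52.6% overlaps the opposite-strand gene Gm11175, which is listed at 0 in all 6 libraries, so counts of Jund are uncertain.

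**Figure D2:**
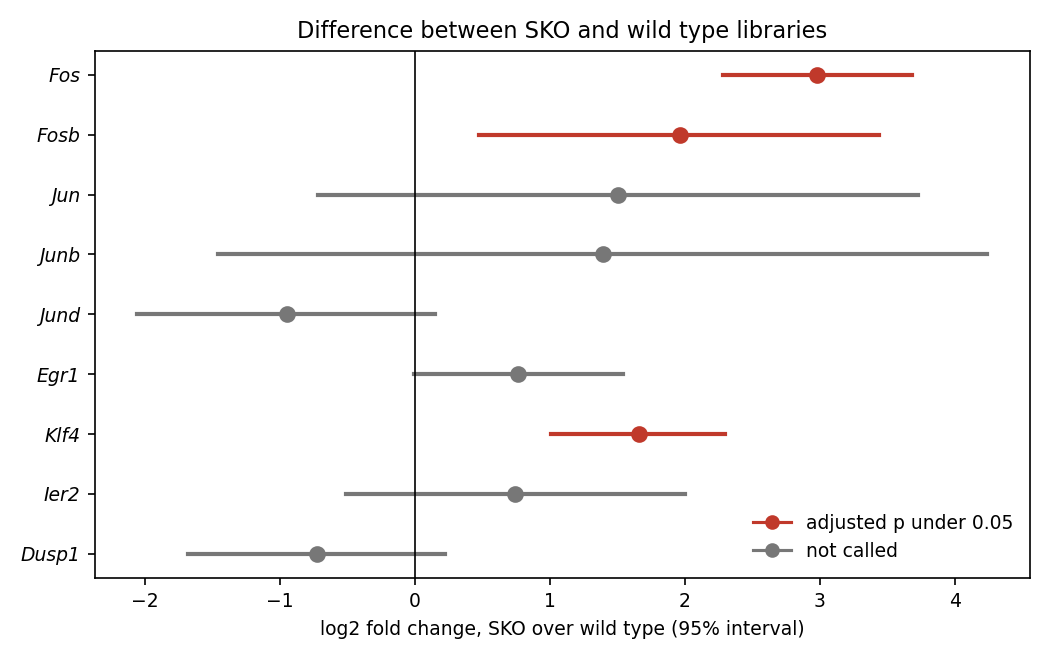
Log2 fold change of SKO over wild type for the 9 genes (points) with 95% intervals (lines) from edgeR's quasi-likelihood fit on 3 libraries per group; red marks an adjusted p under 0.05. The intervals of Fos (2.28 to 3.68), Klf4 (1.01 to 2.3) and Fosb (0.47 to 3.44) lie above 0, and those of the other 6 genes include 0.

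Divided by annotated exon length, the level of Fos relative to the other members differed between the groups. In SKO libraries the order of mean CPM per kb was Fos (7.48), Klf4 (4.33), Ier2 (2.34), Egr1 (2.15), Jund (1.44), Dusp1 (0.94), Jun (0.55), Fosb (0.544) and Junb (0.322). Fos was separate from Klf4 and Klf4 from Ier2 in every SKO library, while the ranges of Ier2 and Egr1 overlapped, as did those of the neighbouring pairs from Dusp1 down. In wild type libraries the order was Jund (2.8), Dusp1 (1.56), Ier2 (1.39), Klf4 (1.37), Egr1 (1.27), Fos (0.941), Jun (0.191), Fosb (0.139) and Junb (0.117). There, neighbours in the order overlapped in range, with the exception of Fos and Jun. Exon lengths join all annotated transcripts of a gene; with the longest coding transcript instead, Dusp1 stood above Jund in SKO libraries, and Fosb above Jun in both groups.

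Among the 5 AP-1 genes, Fos held the largest part of the length-scaled signal in SKO libraries and Jund in wild type libraries. Fos took 72.1, 73.9 and 71.1% of the summed CPM per kb of Fos, Fosb, Jun, Junb and Jund in SKO replicates 1 to 3, against 17.9, 17.2 and 40.5% in wild type replicates 1 to 3. Jund took 12.9, 16.7 and 12.4% in SKO replicates 1 to 3, against 76.9, 69.8 and 47.4% in wild type replicates 1 to 3. The ranges did not overlap for either gene. Wild type replicate 3, which had the fewest Jund counts of its group, lay nearest to the SKO libraries. These shares rest on the same values as the tests above and were not tested again, and the overlap of Jund with Gm11175 touches them.

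**Figure D3:**
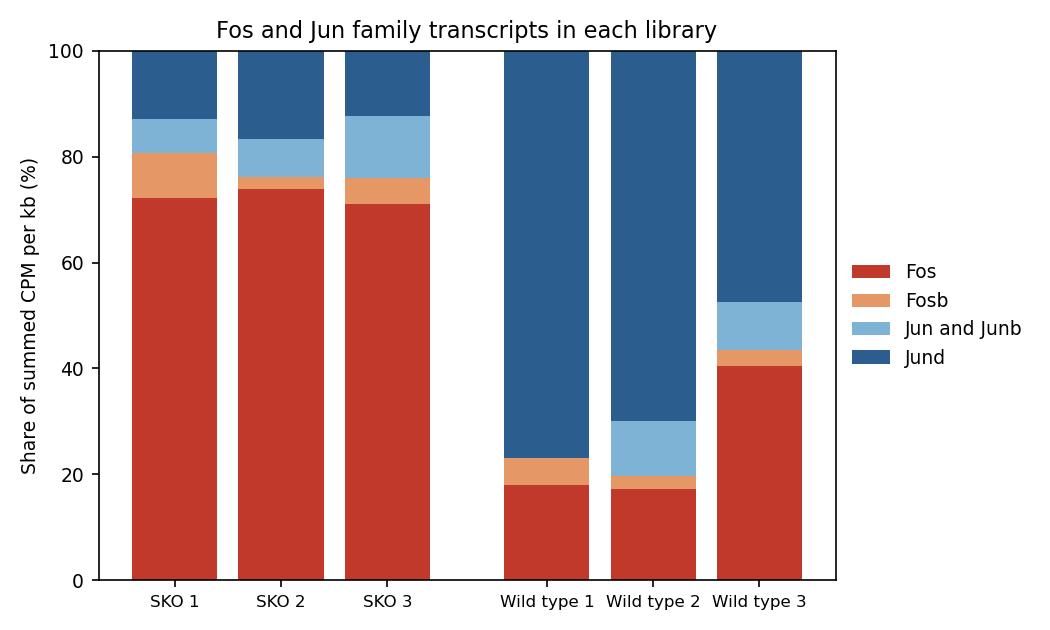
Share of the summed CPM per kb of 5 AP-1 genes taken by Fos, Fosb, Jun with Junb, and Jund (stacked, in percent, with no error bar since each bar is 1 library) in SKO replicates 1 to 3 and wild type replicates 1 to 3. Fos takes 71.1 to 73.9% in the SKO libraries and 17.2 to 40.5% in the wild type libraries.

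Egr1, a zinc finger factor that SRF controls, did not pass, though its interval barely reached 0. The gene (ENSMUSG00000038418; chromosome 18, 34859823 to 34864984, plus strand) was at 7.57, 10.9 and 10.5 CPM in SKO replicates 1 to 3, against 8.57, 4.4 and 4.06 CPM in wild type replicates 1 to 3. Wild type replicate 1 lay above SKO replicate 1, and the other wild type libraries below every SKO library. The log2 fold change was 0.76 (95% interval −0.01 to 1.54; edgeR adjusted p = 0.135). It passed without wild type replicate 1 (1.19; edgeR adjusted p = 0.0368) and under the correction for GC content and length (1.27; 0.0226).

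Ier2, whose protein moves to the nucleus after stimulation, varied more within the SKO group than between the groups. The gene (ENSMUSG00000053560; chromosome 8, 84661331 to 84662852, minus strand, 1 exon) was at 1.32, 4.47 and 4.91 CPM in SKO replicates 1 to 3, against 1.61, 2.84 and 1.9 CPM in wild type replicates 1 to 3. SKO replicate 1 was below every wild type library and the other SKO libraries above every one (log2 fold change 0.74, 95% interval −0.51 to 2; edgeR adjusted p = 0.384). SKO replicate 1 was thus the lowest SKO library for Ier2, Egr1, Klf4 and Junb, but the highest for Fosb and Dusp1.

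Dusp1, which dephosphorylates the p38, JNK and ERK kinases and so restrains the same response, did not pass. The gene (ENSMUSG00000024190; chromosome 17, 26505590 to 26562128, minus strand) was at 4.2, 1.95 and 3.18 CPM in SKO replicates 1 to 3, against 6.57, 4.05 and 4.91 CPM in wild type replicates 1 to 3. SKO replicate 1 lay just above wild type replicate 2, and the other SKO libraries lay below all 3 wild type libraries. The log2 fold change was −0.73 (95% interval −1.68 to 0.22; edgeR adjusted p = 0.248). Dusp1 and Jund were the 2 members with a negative log2 fold change; the other 7 were positive.

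In all, 4 members (Fos, Fosb, Jun and Klf4) had every SKO library above every wild type library, as did 21.6% of all tested genes. The reverse pattern was seen in 0 members and in 22.2% of tested genes. Fos and Klf4 kept their call under all 16 alternatives tried, with log2 fold changes from 2.72 to 3.52 and from 1.39 to 2.49. No member changed sign under any alternative that tested it. The GC content and length correction gave a more positive value than the reported fit for each of the 9, with a median of 2.11 in place of 1.39, while library totals in place of TMM gave a median of 1.09. Annotated transcripts of the members had a median GC content of 56.7%, against 49.6% over the tested genes with a known value.

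**Figure D4:**
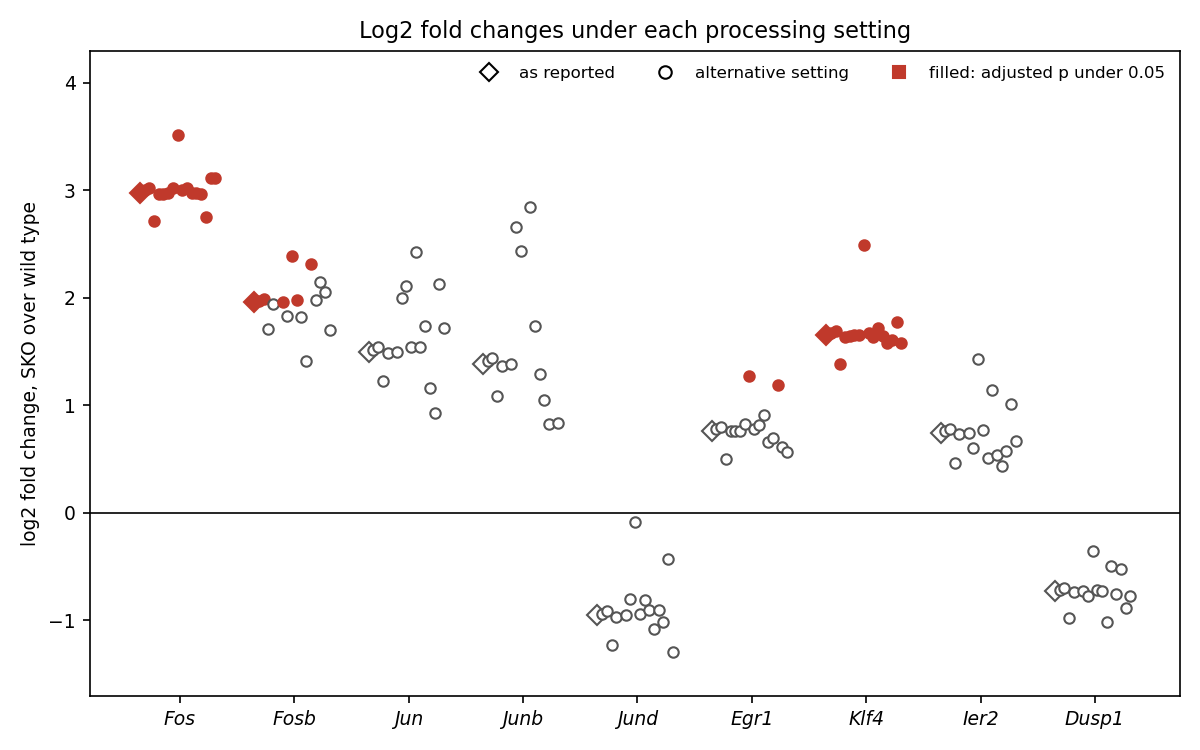
Log2 fold change of SKO over wild type for each of the 9 genes as reported (diamonds) and under each alternative setting that tested it (circles); filled symbols have an adjusted p under 0.05. Symbols of Fos and Klf4 are filled throughout, those of Fosb in part, and those of Egr1 at 2 settings; no gene crosses 0.

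Among the other genes of the AP-1 dimer network, 1 of 8 tested was called higher and 0 lower, of 14 listed (median log2 fold change 0.23). For this list and each list below, the shares over all tested genes were 14.1% called higher and 14.4% lower. In limma-voom 0 were called higher. The count of 0 lower genes was also 0 at an unadjusted p under 0.05, in DESeq2 and in limma-voom. The called gene was Maf, a large MAF family factor, at 1.07, 1.12 and 6.35 CPM in SKO replicates 1 to 3, against 0.129, 0.348 and 0 CPM in wild type replicates 1 to 3 (edgeR adjusted p = 0.0152). SKO replicate 3, the library with macrophage markers, was the highest. Without it, or without wild type replicate 1, 0 genes of this list were called higher, and without wild type replicate 2 there were 2. Atf2, which pairs with JUN, did not pass, at 180 ± 16 CPM in SKO and 152 ± 22.9 CPM in wild type (SD, n = 3 each; edgeR adjusted p = 0.184). The stress-induced factor gene Atf3 was too scarce to test, with 2, 2 and 10 counts in SKO replicates 1 to 3 and 0 counts in all 3 wild type libraries. Fosl1, likewise untested, had 3, 6 and 5 counts in SKO libraries and 64, 0 and 0 counts in wild type libraries, and 57.2% of its exon length overlaps the opposite-strand gene Ccdc85b. Atf2, Atf3 and Fosl1 are named after their values were seen.

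Of 35 other immediate early genes listed, 25 were tested, 3 were called higher, 1 lower and 21 did not pass. Over all tested genes 14.1% were called higher and 14.4% lower. The median log2 fold change of the list was 0.17. Without wild type replicate 2 there were 5 higher and 0 lower. The genes called higher were Btg1, an antiproliferative gene (150 ± 19.7 CPM in SKO, 83.4 ± 8.29 CPM in wild type; edgeR adjusted p = 0.000309), Klf10, a TGF-beta induced zinc finger gene (66.9 ± 12.8 and 38.6 ± 3.09 CPM in the same order; 0.0028), and Homer1, a scaffold gene (64.9 ± 17.5 and 36.8 ± 7.23 CPM; 0.0101), all as mean ± SD of 3 libraries. Each of these 3 was far more abundant than Fos in wild type libraries, and their log2 fold changes lay between 0.79 and 0.85. Arc, best known from activated neurons, was lower, with 2, 2 and 0 counts in SKO libraries and 37, 46 and 17 counts in wild type libraries (edgeR adjusted p = 0.0101); Homer1 and Arc tied at the last place of the naming rule, and both are given.

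Ras, the MAP kinases and the kinases between them carry the signal to immediate early promoters. Of 23 listed, 20 were tested, 3 were called higher, 6 lower and 11 did not pass (median log2 fold change −0.07). The 3 of smallest p were all lower in SKO. Map2k3, which activates p38, averaged 8.61 ± 0.681 CPM in SKO and 20.8 ± 5.36 CPM in wild type (edgeR adjusted p = 0.00255). Hras averaged 15.2 ± 3.81 CPM in SKO and 35.6 ± 11.2 CPM in wild type (0.00306), and Map2k2, which activates ERK, 27.1 ± 5.71 CPM in SKO and 55.2 ± 15.6 CPM in wild type (0.00341; SD, n = 3 each). Mapk8 and Rps6ka3, named after their values were seen, were among the 3 higher genes, with log2 fold changes of 0.56 and 0.46. With library totals in place of TMM, or corrected for GC content and length, 0 genes of this list were called higher, and without SKO replicate 2 or wild type replicate 1 there was 1. Mapk3, which encodes an ERK kinase, did not pass, with a log2 fold change of −0.7 (SE 0.45).

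Of the factors that act at immediate early promoters, 9 of 11 listed were tested, 2 were called higher and 1 lower (median log2 fold change 0.07). Ep300, a histone acetyltransferase, averaged 57.2 ± 3.84 CPM in SKO and 34.2 ± 4.05 CPM in wild type (edgeR adjusted p = 0.00272). Atf1 averaged 135 ± 12.1 CPM in SKO and 105 ± 10.8 CPM in wild type (0.0447), and Mrtfb, an SRF coactivator, 40.6 ± 0.743 CPM in SKO and 54.1 ± 2.87 CPM in wild type (0.0466; SD, n = 3 each). Of these, the calls for Atf1 and Mrtfb were close to the threshold, and with any single library left out 0 genes of this list were called lower. Leaving out any library but wild type replicate 1 left 1 higher. Srf itself was at 3.32 ± 1.88 CPM in SKO and 4.75 ± 3.57 CPM in wild type (edgeR adjusted p = 0.552), and Creb1 at 43.7 ± 0.792 CPM and 43.3 ± 4.83 CPM (0.96).

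Of 10 other MAP kinase phosphatase genes, 6 were tested, 0 were called higher and 1 lower (median log2 fold change 0.32). Dusp2, a nuclear phosphatase like Dusp1, was at 3.13, 4 and 1.54 CPM in SKO replicates 1 to 3, against 10.2, 7.99 and 6.55 CPM in wild type replicates 1 to 3 (log2 fold change −1.51; edgeR adjusted p = 0.0145). The groups did not overlap. Without SKO replicate 3 or without wild type replicate 1, 0 genes of this list were called lower, and without wild type replicate 1 there were 2 higher. The count of 0 higher genes was 1 at an unadjusted p under 0.05, Dusp6, a cytoplasmic ERK phosphatase (log2 fold change 2.25; edgeR adjusted p = 0.117), and 0 in DESeq2 and in limma-voom.

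Heat shock genes respond to protein damage and to tissue handling. Of 13 listed, 11 were tested, 2 were called higher, 3 lower and 6 did not pass (median log2 fold change −0.07). Without any 1 library other than wild type replicate 3, 1 was higher. Their summed level was 7950 to 8420 CPM in SKO libraries and 8360 to 9040 CPM in wild type libraries. Most of these sums was Hsp90aa1, named for this reason, which did not pass. It averaged 5790 ± 279 CPM in SKO and 6060 ± 482 CPM in wild type (SD, n = 3 each), so the sums say little about the other genes. Hspe1, a mitochondrial chaperonin, averaged 913 ± 31.2 CPM in SKO and 542 ± 7.79 CPM in wild type (edgeR adjusted p = 3.39e-05). Hsp90ab1 averaged 239 ± 28.4 CPM in SKO and 415 ± 36.1 CPM in wild type (0.000146), and the HSP70 cochaperone gene Dnajb1 74.6 ± 8.87 CPM in SKO and 131 ± 23 CPM in wild type (0.00119; SD, n = 3 each). Hspa1b, a stress-inducible HSP70 gene picked with its values in view, was at 3.04, 1.95 and 3.46 CPM in SKO replicates 1 to 3, against 0.322, 0.521 and 0.917 CPM in wild type replicates 1 to 3 (edgeR adjusted p = 0.0338). It has a near-identical neighbour, Hspa1a, so its counts are uncertain.

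**Figure D5:**
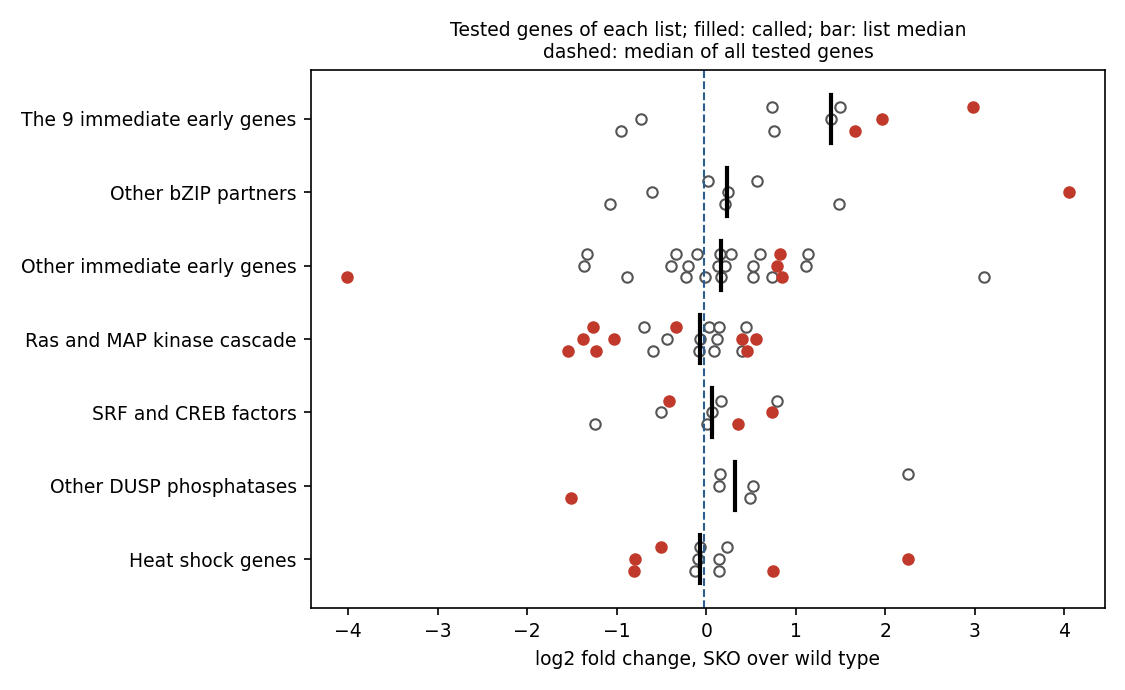
Log2 fold change of SKO over wild type for the tested genes of 7 lists (points, spread vertically for legibility); filled points were called in either direction, black bars are list medians and the dashed line is the median of all tested genes (−0.03). The 9 immediate early genes have a median of 1.39 (0.84 without wild type replicate 3), which is the value of Junb, and the medians of the other lists lie between −0.07 and 0.32. All lists were chosen with earlier results of these data known.

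The genes whose levels followed those of Fos most closely were of other kinds. Over the 6 libraries, the 5 highest Pearson correlations of log2 CPM (with 0.5 CPM added) with Fos, among 8667 tested genes with a mean of at least 5 CPM, were those of Gm14586 (0.9988), Rbm8a (0.9987), Rpl10-ps3 (0.998), Ncapg2 (0.9976) and Snrpd2 (0.9974). Of these, Rbm8a encodes an exon junction complex subunit, Ncapg2 a condensin II subunit and Snrpd2 a core spliceosomal protein, while Rpl10-ps3 is a pseudogene that may share reads with its parent gene. These points share the libraries and the difference between genotypes, and 656 of the 8667 genes had a correlation of at least 0.95, so the order is a description only. Among the members, Klf4 had the highest correlation with Fos (0.98), followed by Jun (0.8) and Fosb (0.76), and Dusp1 the lowest (−0.77).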

How the data were processed

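The authors deposited un-normalized whole-number read counts for each gene. The submitters' processing notes name the builds GRCm38 and mm10 with FastQC, Trim Galore 0.6.4 and HISAT2 2.0.5. The counter, its strand setting and its annotation were not given in the sources used here. Columns named CKO were taken as the SKO libraries by replicate number, since the series has 1 knockout group. Without molecular identifiers, PCR duplicates count as molecules, and reads of genes that overlap on opposite strands cannot be told apart. GENCODE vM21 (GRCm38) gave symbols, positions, GC content and exon lengths for 49325 of 49584 identifiers. Promoter sequences come from RefSeq (GRCm38.p6).

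The fit used edgeR 4.0.16 in R 4.3.3: filterByExpr by genotype (minimum count 10) kept 13474 genes, TMM scaled the libraries, and a two-sided glmQLFTest after glmQLFit, with a genotype term alone, gave log2 fold changes of SKO over wild type with Benjamini-Hochberg adjustment; the script was tested on simulated data. Alternatives were DESeq2 1.42.0, limma-voom (limma 3.58.1), robust fitting, scaling by library totals, upper quartiles or DESeq2 size factors, 2 other low-count filters, a GC content and length correction (loess offsets, span 0.3), a replicate block and each library left out in turn. Chi-square values between replicates were 12 to 22.2 per degree of freedom, so no libraries were merged as 1 deposited again; this covers counting error only and does not show that libraries came from separate animals. Named genes were the members, Srp68, up to 3 called genes of smallest p per list, the 5 genes most correlated with Fos and somatic markers; exceptions are stated. Members and lists were chosen with earlier results of these data known. List symbols Cyr61, Ctgf, Mkl1 and Mkl2 were matched to Ccn1, Ccn2, Mrtfa and Mrtfb through RefSeq synonyms. Some genes of the kinase list are not reported here by name.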

Additional observations from a re-analysis of the deposited data

How the results depend on the processing

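Library totals in place of TMM moved the all-gene median (log2) to −0.29, from −0.03, and gave 1010 genes higher and 3168 lower in place of 1901 and 1937. Between 2 and 4 members were called higher under the 16 alternatives, and 0 lower. With library totals, the other immediate early genes had 2 lower, the kinase list 0 higher, the SRF and CREB factors 1 higher, and heat shock genes 1 higher and 5 lower. Without a low-count filter the other immediate early genes had 5 higher and 2 lower, the SRF and CREB factors 1 higher and 0 lower, and heat shock genes 1 higher. Corrected for GC content and length, the counts were 5 higher (other immediate early genes), 0 higher (kinases), 1 higher (SRF and CREB factors) and 0 lower (phosphatases). A filter of 5 CPM in 3 libraries, which kept 3 members, gave 0 higher AP-1 partners and 1 higher heat shock gene. In limma-voom 0 AP-1 partners were higher, and 0 SRF and CREB factors lower, as with DESeq2 size factors and upper-quartile scaling; DESeq2 gave 2 lower among other immediate early genes. The cause of these moves was not tested.

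With a replicate block, 1976 genes were higher and 1991 lower, 2 members were higher (Fosb was lost, at 1.83 with an edgeR adjusted p of 0.0902), and the counts were 2 lower (other immediate early genes), 0 lower (SRF and CREB factors) and 1 higher (heat shock). Same-numbered libraries did not deviate together (correlations of 0.02, −0.05 and 0.04), and not every library correlated best with its own number, so the numbers were not taken to pair them. With 1 library left out, counts ranged over 0 to 2 AP-1 partners higher, 2 to 5 and 0 to 1 other immediate early genes higher and lower, 1 to 4 kinases higher, 1 to 2 and 0 to 0 SRF and CREB factors higher and lower, 0 to 2 and 0 to 1 phosphatases higher and lower, and 1 to 2 heat shock genes higher. Junb did not pass the low-count filter without wild type replicate 2, and DESeq2 gave it no adjusted p. Low counts limit Junb, Jun and Fosb most, and Egr1 passed at 2 settings given in the report.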

Other observations

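Several well known immediate early genes had few or no counts. Myc and Ptgs2 had 2 counts each, both in SKO replicate 3, and Egr3 had 1 count, in SKO replicate 1; none had a count in wild type libraries. Socs3, a cytokine signalling inhibitor, had 4, 2 and 0 counts in SKO replicates 1 to 3 and 0 counts in each wild type library. Ccn2, which encodes a matricellular growth factor, had 6, 12 and 26 counts in SKO replicates 1 to 3 and 0 counts in each wild type library, and Ccn1, its relative, had 0, 4 and 7 counts in SKO replicates 1 to 3 and 0 counts in each wild type library. SKO replicate 3, which carried the macrophage markers and the most Acta2, was the highest library for both. The list had 10 untested genes, and the rest of them did have wild type counts. In wild type replicates 1 to 3, Nr4a1 had 4, 5 and 0 counts, and Nr4a2 0, 0 and 2. Egr2 had 11, 0 and 4 counts there, and Csrnp1 3, 1 and 0. In SKO replicates 1 to 3, Nr4a1 had 3, 5 and 8 counts, and Nr4a2 7, 2 and 17. Egr2 had 6, 6 and 12 counts there, and Csrnp1 2, 1 and 2. None of these genes passed the low-count filter, and none was tested. They are named after their values were seen.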
